A study of Mus musculus with 24 samples.

Results

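Histone lysine methylation and acetylation enzymes were read in verapamil-treated and untreated MIN6 cells as 73 rows of a count table of 12310 genes. The rule matches gene names: it takes every symbol of the Kmt, Kdm, Setd, Ehmt, Suv39h, Ezh, Nsd, Prdm, Kat, Hdac and Sirt families, with Eed, Suz12 and Ep300. Of these rows, 72 name genes for enzymes, complex subunits or related proteins, and 1 names the pseudogene Kat2b-ps. All 73 passed the filter on low counts, as did 12306 of the 12310 genes. Kmt2a was not analysed here, and neither were Prdm9, Setd4, Kdm4d, Kdm5d and 7 further PRDM factors of the families listed.

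MIN6 is a mouse insulinoma line that secretes insulin, and all samples are labelled as wild-type (WT) cells of this line. RNA was sequenced from 12 libraries of cells treated with 50 µM verapamil, a blocker of L-type calcium channels, for 24 h, and from 12 libraries of cells left untreated for the same 24 h (control). Both groups were kept in 5.6 mM glucose, came from a single cell line and fall into 4 experiment sets of 3 libraries per group. Whether the 3 libraries of a set were separate cultures is not stated, and the p-values thus cover only the variation among libraries, part of which may be technical.

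The enzymes described here add or remove small groups on lysines of the histone tails. Lysine methyltransferases, most with a SET domain, use S-adenosylmethionine, and the mark they leave is read by its place: methyl groups on H3K4 and H3K36 accompany active promoters and transcribed gene bodies, and those on H3K9, H3K27 and H4K20 accompany silent or compacted chromatin. The demethylases LSD1 (Kdm1a) and the JmjC proteins remove them. Acetyltransferases use acetyl-CoA and loosen chromatin, and they are opposed by the zinc-dependent histone deacetylases and the NAD-dependent sirtuins. In β-cells, the PRC2 methyltransferase is known for silencing the cell cycle inhibitor locus Cdkn2a in replicating cells, and the class IIa deacetylases are known as nuclear factors that leave the nucleus when calcium-dependent kinases phosphorylate them.

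Libraries held 12590476 to 32360171 counts in the control group and 21840159 to 44806556 in the verapamil group. Of 13 β-cell markers, 11 were in the table, Ins2 and Mafa among them, and of 16 markers of other cell types only the glucagon gene Gcg was. Of the 11, 5 fell and 2 rose (8 and 2 with the GC and length offsets described below): the insulin gene Ins2 had a log2 fold change of -1.05, the glucose transporter Slc2a2 -0.84 and the zinc transporter Slc30a8 -0.88, and the insulin gene activator Mafa had 0.85. The other increase was that of Nkx2-2 (0.62), and Slc2a2 did not pass with offsets (-0.14, adjusted p = 0.263). The part of these changes in the results on the enzymes was not tested. Gcg rose from a mean of 186 to 260.4 CPM (log2 fold change 0.49, adjusted p = 1.42e-05). A trend with base composition ran through the treated libraries: across genes, Pearson's r between a library's deviation from the control mean and the GC content of the transcripts ran from -0.20 to 0.17 over the controls and from 0.034 to 0.64 over the treated libraries, 9 of which exceeded all controls. Long transcripts were lower in the same libraries, most of all in the library of column V11 of experiment set 4 (r with length -0.60). Within the verapamil group, r with GC content was between 0.49 and 0.64 in sets 2 and 3 and between 0.034 and 0.37 in sets 1 and 4.

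The transcripts of these enzymes were more often lower than higher in verapamil-treated cells. In the comparison of all libraries by edgeR's quasi-likelihood test, with the threshold at an adjusted p of 0.05, 38 of 73 fell (52.1%), 10 rose (13.7%) and 25 did not pass. Among all genes tested, 31.6% fell and 31.2% rose. DESeq2 gave 38 lower and 11 higher members, beside 32.3% and 31.8% of all genes. The median log2 fold change, verapamil over control, was -0.20 over the 73 rows and -0.003 over all genes. The increases were small, the largest being that of Sirt2 at 1.6-fold, and the decreases reached 0.412-fold of the control level in Hdac9. In 4 genes every verapamil library lay above every control library (Sirt2, Hdac3, Kat2a and Kat5; 4.95% of all genes did), and in 3 genes every verapamil library lay below (Hdac9, Ezh2 and Ep300; 5.18% of all genes did).

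**Figure D1:**
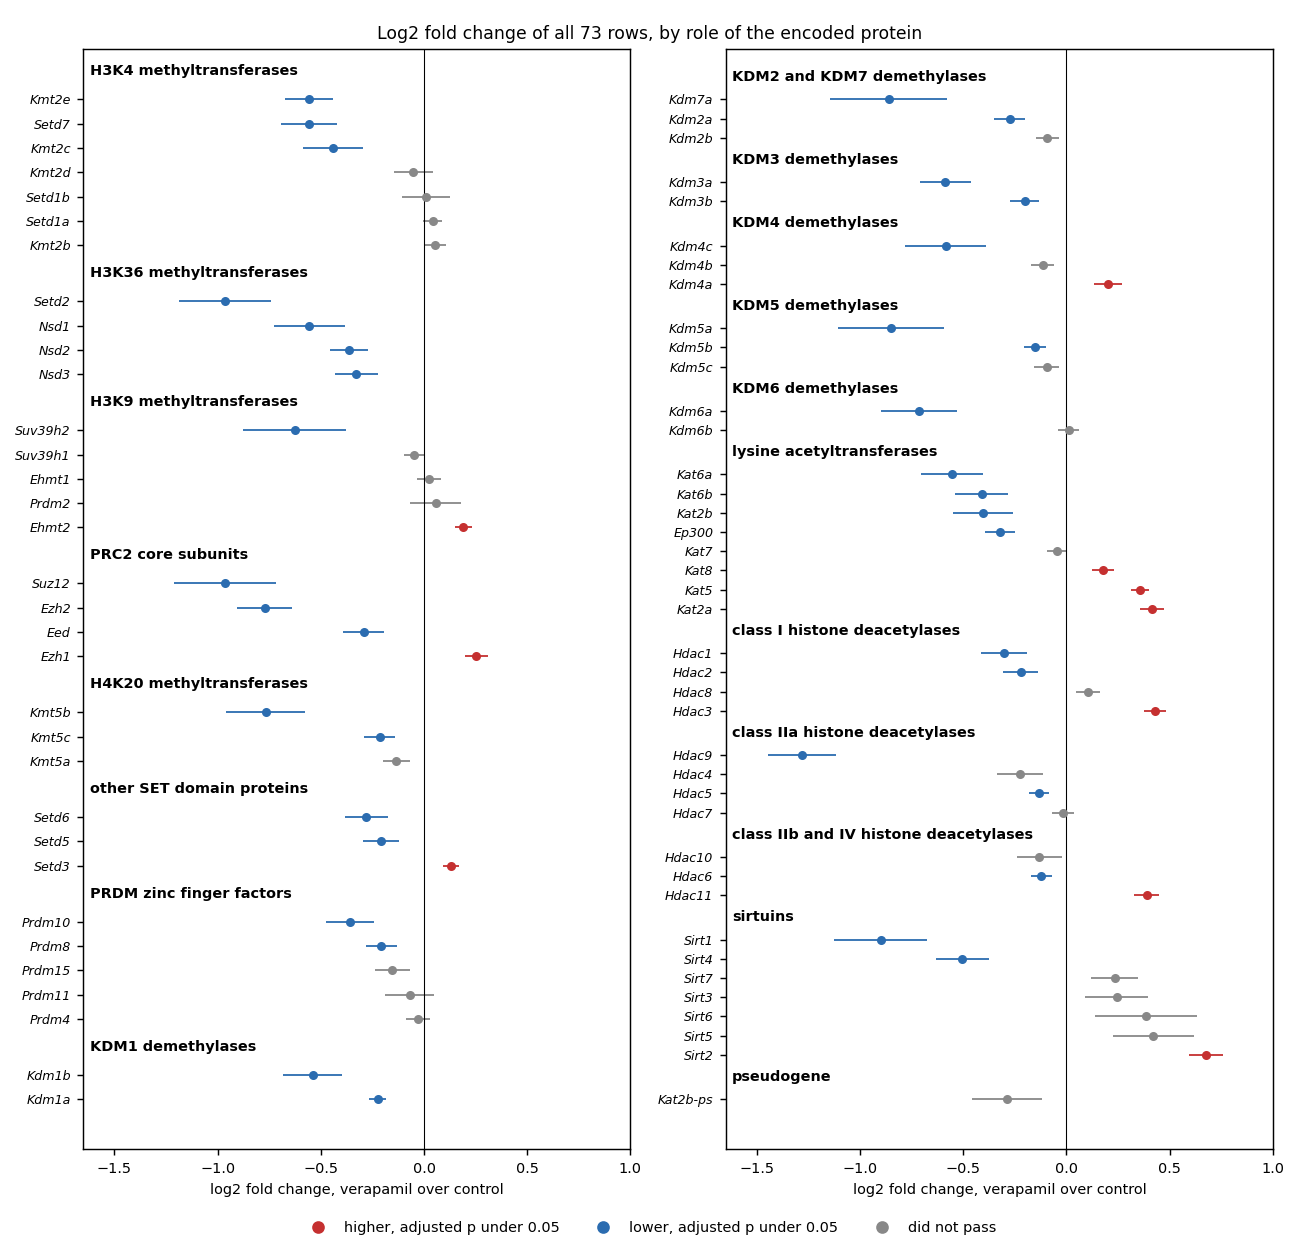
Log2 fold change (verapamil over control, x axis) of all 73 rows, grouped by the role of the encoded protein, with points for the edgeR estimate and bars for its standard error. Red points (10) passed the test as higher, blue points (38) passed as lower, and grey points (25) did not pass. Increases and decreases stand side by side within the PRC2 subunits, the KDM4 demethylases, the acetyltransferases, the class I deacetylases and the sirtuins.

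The share of decreases moved with transcript length and GC content. Their longest annotated transcripts had a median of 4.85 kb against 3.22 kb over all genes, and 37 of the 73 belong to the length class of 4.78 to 40.4 kb, the longest of 4 equal classes of all genes. In that class 24 of the 37 fell and 0 rose, with a median log2 fold change of -0.28, beside -0.30 for all genes of the class, of which 53.9% fell and 11.9% rose. At an unadjusted p under 0.05 and by DESeq2, 0 of the 37 were higher as well. The 14 enzymes in the lowest of 4 equal GC classes (26.2 to 45.2%) had a median of -0.74, beside -0.45 for all genes there, and 13 of them fell, beside 62.7% of all genes there. The 38 that fell had a median transcript length of 6.03 kb and a GC content of 47.2%, and the 10 that rose had 3.16 kb and 53.9%.

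**Figure D2:**
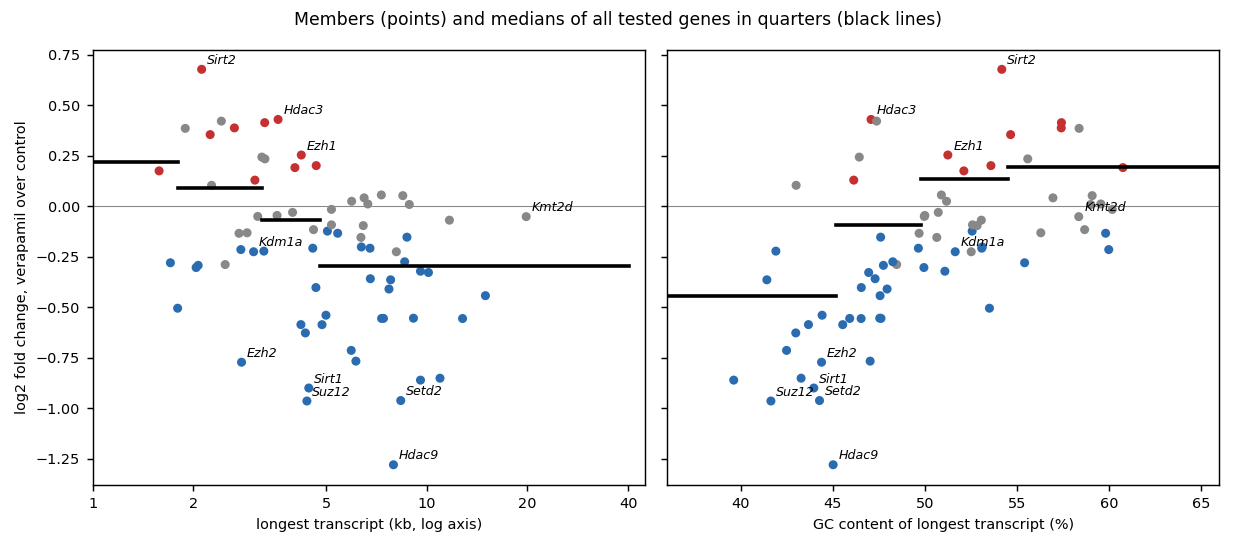
Log2 fold change (verapamil over control, y axis) of the members against the length of the longest transcript (left, kb, log axis) and its GC content (right, %), with red points for higher, blue for lower and grey for not passed. Black lines mark the medians of all tested genes in 4 equal classes of each property: members with long or GC-poor transcripts lie low, as do the genes around them.

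Further fits were therefore read beside the first. In the fit with offsets, each library's trend over GC content and length was removed before the test. In the fit with slopes, each library's slope on GC content and on length entered as covariates, which left the treatment less well determined (variance inflation 1.99). In the last, the counts of each experiment set were summed, so that 4 sums stood against 4. With offsets 24 members fell and 23 rose (26.4% and 30.1% of all genes), with slopes 9 fell and 19 rose (14.3% and 21.4%), and over the summed counts 15 fell and 7 rose (17.3% and 24.4%). Of the 38 first called lower, 20 stayed so with offsets, and 5 were called higher there: Hdac2, Kdm2a, Kdm5b, Nsd2 and Nsd3. With slopes 6 stayed lower and 8 were called higher: Kat2b, Kat6b, Kdm5a, Kdm7a, Kmt2c, Nsd1, Nsd3 and Setd5. Over the sums, 10 of the 26 members named by rule lost their call (adjusted p of 0.0535 to 0.148): Suz12, Setd2, Sirt1, Kdm7a, Kdm5a, Kmt5b, Kdm4c and Kdm6a among the decreases, and Kdm4a and Setd3 among the increases. Of the 10 first called higher, 9 were kept by offsets, 8 by slopes and 7 over the sums.

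Passed in the same direction by the first comparison and these 3 fits were 6 increases (Sirt2, Hdac3, Kat2a, Hdac11, Kat5 and Ezh1; 11% of all genes) and 4 decreases (Hdac9, Ezh2, Kdm1a and Sirt4; 8.05% of all genes). Only 3 verapamil libraries lay inside the control range of the GC trend, 1 from set 1 and 2 from set 4. With these 3 against the 12 controls, a comparison chosen after seeing the data, 13 members fell and 9 rose (14.8% of all genes each way). The 6 increases named above and Hdac9, Ezh2 and Kdm1a were again among them, and Sirt4 had a log2 fold change of -0.54 (adjusted p = 0.0769).

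**Figure D3:**
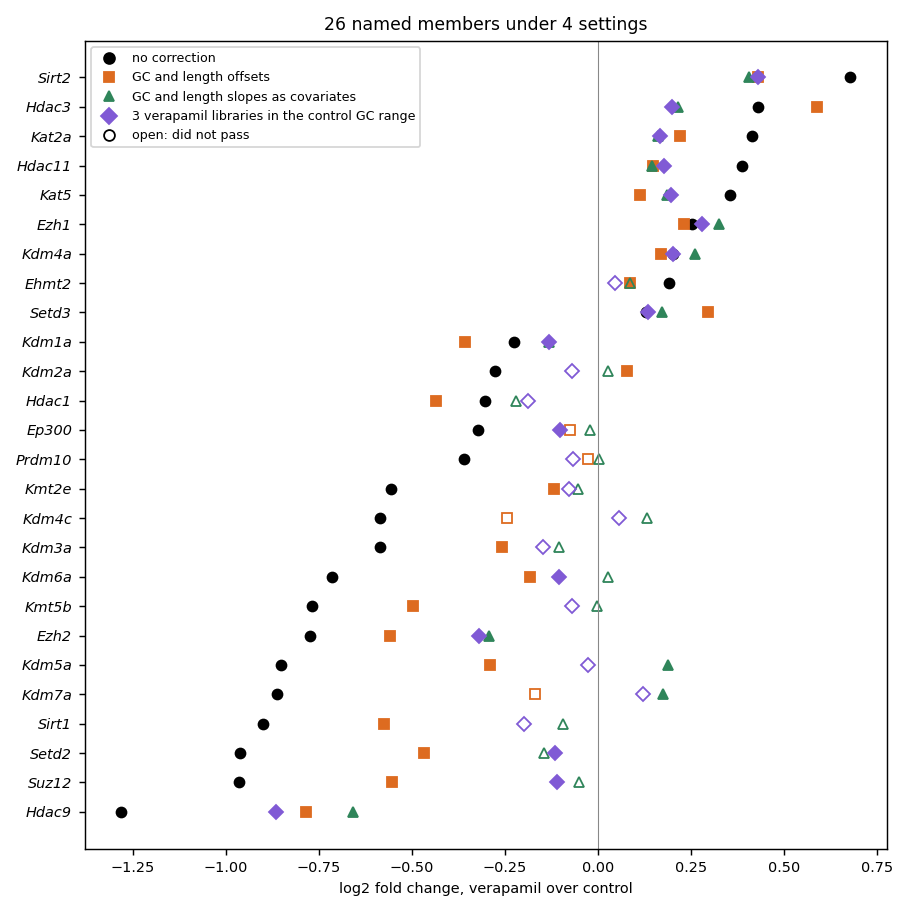
Log2 fold change (verapamil over control, x axis) of 26 named members in 4 fits: no correction (black circles), GC and length offsets (orange squares), GC and length slopes as covariates (green triangles), and the 3 verapamil libraries inside the control range of the GC trend (purple diamonds); open symbols did not pass. From Sirt2 to Kdm4a all symbols are filled and right of 0, and those of Hdac9, Ezh2 and Kdm1a are filled and left of it, whereas the symbols of Kdm5a, Kdm7a, Kdm4c and Kdm2a lie on both sides.

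The 4 experiment sets differed in how far the transcripts moved. Within a set, 12 members fell and 7 rose in set 1 (14.0% and 13.7% of all genes), 33 and 12 in set 2 (30.9% and 26.3%), and 28 and 8 in set 3 (23.4% and 19.9%). In set 4, edgeR called 0 members in either direction (0.0894% and 0.317% of all genes), while 5 members were higher and 3 lower at an unadjusted p under 0.05. Without set 2, 21 members fell and 7 rose (20.5% and 23.2% of all genes), and without set 3, 22 fell and 8 rose (23.0% and 24.5%). The sign was the same in all 4 sets for 31 of the 38 decreases and for 8 of the 10 increases. Over all genes it was the same for 3423 of the 3890 decreases and for 3375 of the 3836 increases (27.8% and 27.4% of the genes tested). Such agreement was thus common among called genes and not particular to the members. In set 4, the median log2 difference of the 38 decreases from the control mean was -0.83 in the library of column V11. It was -0.037 and -0.065 in those of columns V10 and V12. The size of the set 4 decreases thus rests largely on the library of column V11. The effect differed between sets by the interaction test in 10 members (9.72% of all genes), namely Sirt1, Suz12, Ezh2, Kdm4c, Setd2, Kdm7a, Kmt5b, Setd7, Kdm1b and Hdac7. Sets 2 and 3, with the larger decreases, are also those with the steeper GC trend, and the part of that trend in the difference was not tested.

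**Figure D4:**
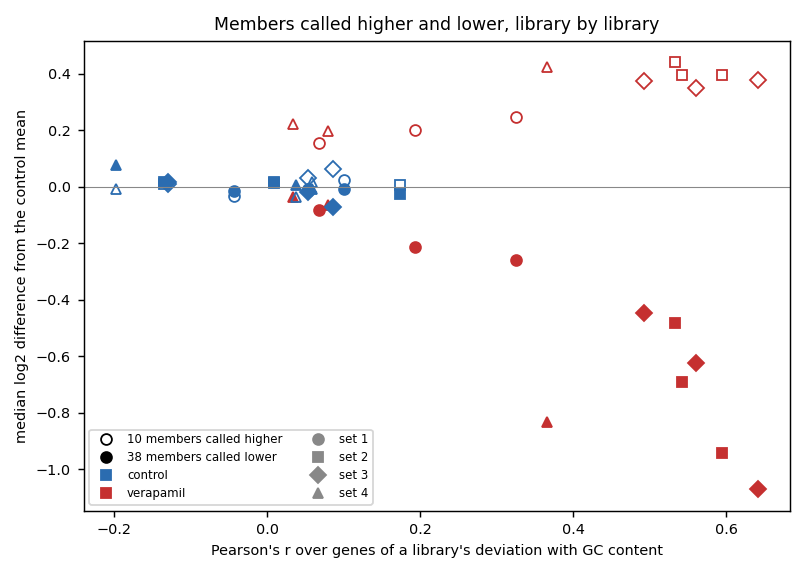
Median log2 difference from the control mean (y axis) of the 10 members called higher (open symbols) and the 38 called lower (filled symbols) in each of the 24 libraries, against the library's Pearson r with GC content (x axis); blue is control, red is verapamil and the shape gives the experiment set. The medians of the decreases run from -0.04 to -1.07 over the verapamil libraries and are lowest in the library with the highest r, and those of the increases run from 0.16 to 0.44; the groups were chosen from these libraries, so the separation from the controls is a description.

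Per kilobase of transcript, the most abundant of these mRNAs in control cells were Hdac5 (110.3 CPM per kb), Kat5 (93.2), Kdm5c (93.2), Setd5 (80.9) and Ezh2 (80.1). The least abundant were Prdm11 (0.115), Suv39h2 (0.189) and Hdac9 (0.499). Levels below are CPM (counts scaled by library size after TMM normalization), given as the lowest, median and highest of the 12 libraries of a group, and the fold changes are log2 values with their standard error.

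Of the core subunits of PRC2, the complex that methylates H3K27, Ezh2, Suz12 and Eed fell and Ezh1 rose. Ezh2, its main catalytic subunit in dividing cells, was at 206 to 239.9 CPM (median 224) in control cells and at 64.0 to 186 CPM (median 132) after verapamil. All 12 verapamil libraries lay below the lowest control. The log2 fold change was -0.77 ± 0.14 (adjusted p = 3.89e-05), which is 0.585 of the control level, and it stayed past the threshold with offsets (-0.56, adjusted p = 4.75e-07) and with slopes (-0.29, adjusted p = 7.48e-07). Ezh1, the catalytic subunit that predominates in resting cells, was at 33.9 to 43.0 CPM (median 38.9) against 33.6 to 50.6 CPM (median 46.6), above every control in 11 libraries and below every control in 1, that of column V11. Its increase (0.25 ± 0.054, adjusted p = 0.00034) was of like size in the 4 sets, from 0.23 to 0.31. Suz12, the scaffold of the complex, was at 181 to 214 CPM (median 199) in control cells and spread from 27.7 to 193 CPM (median 75.6) after verapamil. The fitted change of Suz12 was -0.96 ± 0.25 on the log2 scale (adjusted p = 0.00192), with -1.93 and -1.99 in sets 2 and 3 and -0.40 and -0.38 in sets 1 and 4. The decrease passed with offsets (-0.55, adjusted p = 0.000838) and neither with slopes (-0.052, adjusted p = 0.43) nor over the summed counts (-0.94, adjusted p = 0.0736). Eed, which binds the methylated lysine, had -0.29 ± 0.098 (adjusted p = 0.0121), and its verapamil level was highest in the library of column V11, at 128 CPM. The decrease of Eed passed with offsets (-0.31, adjusted p = 0.0024) and not with slopes (-0.050, adjusted p = 0.54). It did not pass over the summed counts (-0.28, adjusted p = 0.122), and the value in set 4 was 0.039.

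Ezh2 is transcribed from the minus strand at chr6:47530139-47595341 and Ezh1 from the minus strand at chr11:101191115-101226463, and Suz12 from the plus strand at chr11:79993106-80034123 (GRCm38, GENCODE M21). The 250 bases before their RefSeq start sites (GRCm38.p6) are shown because these 3 genes carry the PRC2 result and 2 of them are paralogs that moved in opposite directions. Capitals mark matches on either strand to the E2F letters TTTCCCGC, the CCAAT box (CCAAT), the NRF1 motif, the cyclic AMP response element (TGACGTCA) or the E-box (CACGTG), with no overlap between the motifs marked here.
Ezh2 (chr6:47595031-47595280, minus strand): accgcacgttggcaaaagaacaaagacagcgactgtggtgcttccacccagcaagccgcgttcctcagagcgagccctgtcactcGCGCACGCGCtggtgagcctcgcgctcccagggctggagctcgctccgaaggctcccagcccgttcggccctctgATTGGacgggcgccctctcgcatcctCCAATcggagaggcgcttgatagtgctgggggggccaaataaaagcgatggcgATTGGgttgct
Ezh1 (chr11:101226464-101226713, minus strand): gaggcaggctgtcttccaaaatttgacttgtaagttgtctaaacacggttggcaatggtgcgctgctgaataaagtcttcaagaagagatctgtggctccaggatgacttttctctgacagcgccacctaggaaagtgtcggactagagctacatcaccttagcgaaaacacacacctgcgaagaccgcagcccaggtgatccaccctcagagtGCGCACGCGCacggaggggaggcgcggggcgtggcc
Suz12 (chr11:79992856-79993105, plus strand): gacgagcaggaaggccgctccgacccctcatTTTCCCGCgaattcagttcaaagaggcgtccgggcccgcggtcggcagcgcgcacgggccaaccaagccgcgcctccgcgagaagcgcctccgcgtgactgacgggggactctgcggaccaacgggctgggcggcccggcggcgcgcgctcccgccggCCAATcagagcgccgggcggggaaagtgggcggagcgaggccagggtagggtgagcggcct

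Ezh2 held 3 CCAAT boxes and 1 NRF1 match, Ezh1 held 1 NRF1 match, and Suz12 held 1 E2F match and 1 CCAAT box. In windows of 300 bases (250 before and 50 after the start), available for 56 of the 73 members, the E2F letters occurred in 3 of 29 that fell (Suz12, Sirt4 and Kmt5c; 10.3%), in 0 of 9 that rose, and in 2.22% of the windows of 8246 tested genes. CCAAT occurred in 37.9% of those that fell, 66.7% of those that rose and 38.4% of all, and the NRF1 motif in 13.8%, 11.1% and 11.7%. A match is a stretch of letters and not a measured binding site.

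Of 12 proliferation genes, 8 fell in edgeR's test and 0 rose (0 also by DESeq2 and at an unadjusted p under 0.05), and with slopes 10 fell, beside 31.6% and 14.3% of all genes that fell. Mki67, the Ki-67 antigen, went from a mean of 17.5 to 5.49 CPM (-1.66, adjusted p = 0.000216), and the topoisomerase gene Top2a had -1.26. With slopes Mki67 had -0.46 and Top2a -0.45, past the threshold in both. Ccnb1, Ccne1, Cdk1 and Mcm2 did not pass in the first comparison. The sum of the 12 genes ranged from 1071 to 1219 CPM over the controls and from 776 to 909 CPM over the verapamil libraries. Top2a made up a large part of that difference, its mean going from 297 to 124 CPM. Both decreases were thus smaller with slopes, and the part of the GC and length trend in them was not tested. The paper reports more Ki-67 protein in serum-starved cells after the same dose and time of verapamil, and faster growth of treated cells. The lower RNA of these genes goes the other way, and the reason was not tested. Fewer cycling cells and less RNA per cell cannot be told apart in bulk RNA. The part of the 12 genes in the Ezh2 result was not tested.

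**Figure D5:**
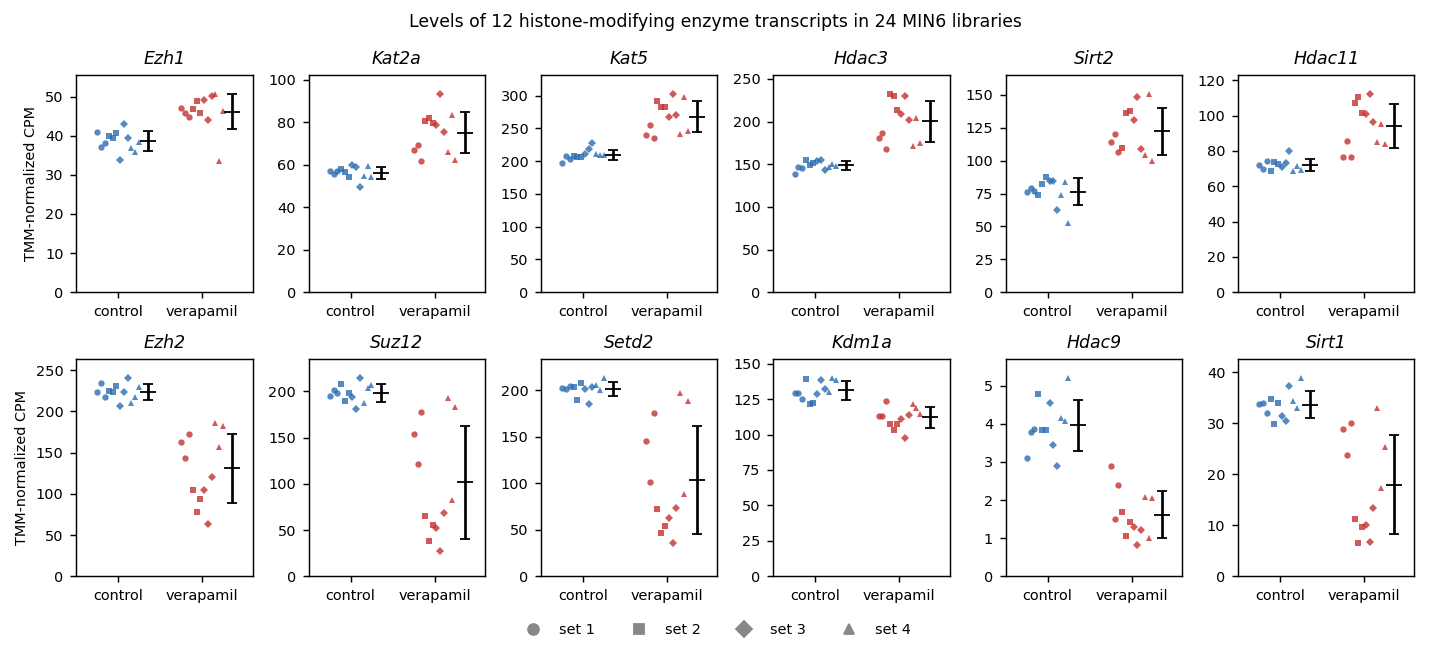
TMM-normalized CPM (y axis, from 0) of 12 transcripts in the 12 control (blue) and 12 verapamil (red) libraries, with the marker shape for the experiment set and black bars for the mean and SD. The upper row holds the 6 increases that passed in all 4 of the fits described (Ezh1, Kat2a, Kat5, Hdac3, Sirt2 and Hdac11), and the lower row holds decreases, of which Suz12, Setd2 and Sirt1 spread widely, with the lower values in sets 2 and 3.

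Among the PRC2 partners, 2 of 8 genes rose and 4 fell, with a median of -0.25. The counts of this and the later partner lists stand beside 31.2% higher and 31.6% lower among all genes. The accessory subunit Mtf2, which anchors PRC2 at CpG islands, fell (-0.83 ± 0.2, adjusted p = 0.00119), with -0.10 and an adjusted p of 0.138 with slopes, and -0.81 and 0.0706 over the summed counts. Aebp2, another accessory subunit, had -0.47 in the first comparison and 0.23 with offsets, both past the threshold, so its direction turned with the correction. Over the summed counts Aebp2 had -0.47 (adjusted p = 0.0515).

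Of the 7 H3K4 methyltransferases, 3 fell (Kmt2e, Setd7 and Kmt2c), 0 rose and 4 did not pass (by DESeq2 and at an unadjusted p under 0.05, 0 rose as well). Kmt2e, a member of the MLL family for which no clear enzyme activity is known, was at 181 to 207 CPM (median 193) in control cells and at 82.5 to 191 CPM (median 119.6) after verapamil (-0.56 ± 0.12, adjusted p = 0.000263). Of its verapamil libraries, 10 lay below every control. With slopes its log2 fold change was -0.054 (adjusted p = 0.287). Setd7, which adds a methyl group to H3K4 and to other proteins, had -0.56 ± 0.14 (adjusted p = 0.0012). The decrease of Setd7 was kept neither by offsets (-0.22, adjusted p = 0.0719) nor by slopes (-0.048, adjusted p = 0.598). It also missed the threshold over the summed counts (-0.55, adjusted p = 0.0599). The large promoter and enhancer methyltransferases Kmt2b, Kmt2d, Setd1a and Setd1b had log2 fold changes between -0.052 and 0.052 that did not pass in the first comparison. With offsets Kmt2b (0.20, adjusted p = 4.7e-05) and Setd1a (0.11, adjusted p = 0.00149) passed as higher, and Setd1b did not (0.14, adjusted p = 0.111). With slopes neither Kmt2b (0.036, adjusted p = 0.362) nor Setd1a (0.039, adjusted p = 0.365) passed. Kmt2c and Kmt2d, the paired enhancer enzymes, have the longest transcripts of the members (15.0 and 19.8 kb) at GC contents of 47.6% and 58.4%, and Kmt2c fell (-0.44 ± 0.14, adjusted p = 0.0107), whereas Kmt2d had -0.052 ± 0.096 (adjusted p = 0.653). With slopes both passed as higher, at 0.18 and 0.18, and with offsets Kmt2d passed as higher (0.27) and Kmt2c did not pass (0.030).

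Of the partners of the MLL and COMPASS complexes, 4 of 12 rose and 5 fell, shares near those of all genes (31.2% and 31.6%). Menin (Men1), the tumour suppressor that tethers MLL proteins, was at 119 to 129.6 CPM (median 123) against 138 to 208 CPM (median 169), with all 12 verapamil libraries above the highest control. The increase of Men1 was 0.45 ± 0.055 (adjusted p = 3.15e-07), 0.24 with offsets and 0.27 with slopes. Psip1 (LEDGF), which binds menin and H3K36-methylated chromatin, was at 129 to 149 CPM (median 142) against 30.3 to 116 CPM (median 70.9), all 12 libraries below the lowest control (-0.92 ± 0.17, adjusted p = 5.37e-05). The decrease of Psip1 was -0.59 with offsets and -0.32 with slopes, past the threshold in both.

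All 4 H3K36 methyltransferases fell. Setd2, the only enzyme known to trimethylate H3K36 in somatic cells, was at 186 to 213 CPM (median 203) in control cells and at 36 to 196 CPM (median 80.9) after verapamil, below every control in 10 libraries. The log2 fold change was -0.96 ± 0.22 (adjusted p = 0.000747), from -0.39 in set 4 to -1.82 in set 2. It passed with offsets (-0.47, adjusted p = 0.0012) and missed the threshold with slopes (-0.14, adjusted p = 0.0844) and over the summed counts (-0.94, adjusted p = 0.0536). Nsd1, Nsd2 and Nsd3, which add the lower methyl marks, had -0.56, -0.36 and -0.33. None of these 3 decreases was kept by offsets or slopes, and Nsd2 and Nsd3 turned to 0.44 and 0.14 with offsets (adjusted p = 4.01e-05 and 0.00388).

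Of the 5 H3K9 methyltransferases, Ehmt2 rose and Suv39h2 fell. Ehmt2 (G9a), which places the dimethyl mark in euchromatin, was at 190.2 to 221 CPM (median 209) against 201 to 271 CPM (median 236), above every control in 10 libraries (0.19 ± 0.043, adjusted p = 0.000538). The increase was 0.086 with offsets (adjusted p = 0.0276) and did not pass with slopes (0.086, adjusted p = 0.108). Its partner Ehmt1 had 0.025 (adjusted p = 0.727). Suv39h2, a heterochromatin enzyme, was counted at 5 to 44 reads per library, so its -0.63 rests on few reads.

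Of the 11 H4K20 methyltransferases, other SET domain proteins and PRDM factors, 6 fell, 1 rose and 4 did not pass. Kmt5b, which places the higher methyl marks on H4K20, was at 98.9 to 119.6 CPM (median 109) against 25.0 to 109.5 CPM (median 53.3) (-0.77 ± 0.19, adjusted p = 0.0015). The log2 values ran from -0.30 in set 1 to -1.51 in set 2, and the value with slopes was -0.0010 (adjusted p = 0.99). Kmt5c fell as well (-0.21), and Kmt5a, the monomethylating enzyme of mitosis, had -0.13 (adjusted p = 0.0728). Setd3, whose known substrate is a histidine of actin and not a histone, was at 127 to 147 CPM (median 136) against 133 to 168 CPM (median 149) and rose slightly (0.13 ± 0.039, adjusted p = 0.00652), kept by offsets and slopes and not over the summed counts (adjusted p = 0.099), with -0.021 in set 3. Prdm10, a zinc finger transcription factor, was at 12.1 to 15.1 CPM (median 13.3) against 4.43 to 14.1 CPM (median 10.6) (-0.36 ± 0.12, adjusted p = 0.0101), and the value was -0.027 with offsets (adjusted p = 0.781).

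Among the 15 demethylases of the KDM families, 10 fell, 1 rose and 4 did not pass. Kdm1a (LSD1), the flavin-dependent enzyme of the CoREST complex that acts on H3K4, was at 121 to 139.6 CPM (median 129.6) in control cells and at 97.6 to 124 CPM (median 113) after verapamil. In 10 libraries it lay below every control, and the spread in the treated group was narrow. Its log2 fold change was -0.23 ± 0.041 (adjusted p = 5.29e-05), between -0.30 and -0.14 in the 4 sets, and past the threshold with offsets (-0.36) and slopes (-0.13). Kdm1b, its relative, had -0.54 ± 0.14 (adjusted p = 0.00255), which missed the threshold with offsets (-0.14, adjusted p = 0.123).

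The JmjC demethylases with the largest decreases were Kdm7a and Kdm5a. Kdm7a, which acts on H3K9 and H3K27, was at 104 to 132 CPM (median 114) against 15.1 to 128 CPM (median 40.8). The verapamil libraries of columns V3, V10 and V12 lay at 123, 128 and 119.9 CPM, within the control range, and the other 9 lay below it. The log2 fold change was -0.86 ± 0.28 (adjusted p = 0.011), with -1.98 and -2.02 in sets 2 and 3 and -0.20 and -0.28 in sets 1 and 4. With slopes it was 0.17 (adjusted p = 0.0132), the opposite direction. Kdm7a has the lowest GC content of the members, at 39.6%. Kdm5a, an H3K4 demethylase, was at 133 to 159.9 CPM (median 148) against 21.9 to 151 CPM (median 65.6) (-0.85 ± 0.26, adjusted p = 0.00603). It kept a decrease with offsets (-0.29, adjusted p = 0.0265) and turned to 0.19 with slopes (adjusted p = 0.00305).

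Kdm6a (UTX), the X-linked H3K27 demethylase, was at 181 to 204 CPM (median 189) against 39.4 to 186 CPM (median 101), below every control in 11 libraries (-0.71 ± 0.18, adjusted p = 0.00185). The value with slopes was 0.028 (adjusted p = 0.721). Kdm6b, the other H3K27 demethylase, had 0.011 ± 0.052 (adjusted p = 0.86). Kdm3a, an H3K9 demethylase known as a hypoxia-induced gene, was at 199.5 to 306 CPM (median 225) against 81.1 to 228 CPM (median 148) (-0.59 ± 0.12, adjusted p = 0.000307), kept by offsets (-0.26) and not by slopes (-0.10, adjusted p = 0.233). Kdm2a, an H3K36 demethylase that binds unmethylated CpG, was at 426 to 461 CPM (median 444) against 236 to 432 CPM (median 379.9) (-0.28 ± 0.074, adjusted p = 0.00261) and turned to 0.077 with offsets (adjusted p = 0.0297).

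The KDM4 enzymes, which act on H3K9 and H3K36, split. Kdm4a was at 68.2 to 89.1 CPM (median 73.9) in control cells and at 54.1 to 97.2 CPM (median 88.7) after verapamil. The lowest verapamil value came from the library of column V11, the other 11 lay between 82.7 and 97.2, and 6 exceeded every control. Its log2 fold change was 0.20 ± 0.069 (adjusted p = 0.0144), kept by offsets (0.17) and slopes (0.26) and not over the summed counts (0.21, adjusted p = 0.0618), with -0.053 in set 4. Kdm4c was at 22.8 to 28.4 CPM (median 24.4) against 5.08 to 27.0 CPM (median 15.9) (-0.59 ± 0.2, adjusted p = 0.0124), near 0 in sets 1 and 4 (-0.051 and -0.15) and at -1.42 and -1.24 in sets 2 and 3. Neither offsets (-0.24, adjusted p = 0.0648) nor slopes (0.13, adjusted p = 0.0882) kept the decrease.

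Of the 8 lysine acetyltransferases, Kat2a, Kat5 and Kat8 rose, and Ep300, Kat2b, Kat6a and Kat6b fell. Kat5 (TIP60), the catalytic subunit of the NuA4 complex that acetylates H4 and H2A, was at 197 to 228 CPM (median 208) in control cells and at 235 to 302 CPM (median 269) after verapamil. No verapamil library reached down to the highest control. The log2 fold change was 0.35 ± 0.044 (adjusted p = 3.64e-07), between 0.26 and 0.45 in the sets, 0.11 with offsets and 0.19 with slopes. Its exons share 12.1% of their bases with Rnaseh2c on the opposite strand, and whether the counting used strand is not stated. Kat2a (GCN5), the acetyltransferase of the SAGA complex that marks H3K9, was at 49.5 to 59.9 CPM (median 56.7) against 61.9 to 93.1 CPM (median 77.0), again without overlap (0.41 ± 0.059, adjusted p = 3.29e-06). It was 0.22 with offsets and 0.16 with slopes.

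Ep300 (p300), the coactivator that acetylates H3K27 at enhancers, was at 289.9 to 308 CPM (median 299) in control cells and at 154 to 281 CPM (median 252) after verapamil, all 12 libraries below the lowest control. The log2 fold change was -0.32 ± 0.075 (adjusted p = 0.000781), and it missed the threshold with offsets (-0.074, adjusted p = 0.0754) and with slopes (-0.021, adjusted p = 0.671). Kat2b (PCAF), the paralog of Kat2a, had -0.40 ± 0.15 (adjusted p = 0.0194), with -0.17 with offsets (adjusted p = 0.0981) and 0.23 with slopes (adjusted p = 0.00301). Kat2b-ps is a pseudogene copy of Kat2b, so counts of the pair are uncertain, and its own value was -0.29 ± 0.17 (adjusted p = 0.136). Kat6a and Kat6b (MOZ and MORF) had -0.55 and -0.41, and Kat8 (MOF), the H4K16 acetyltransferase, had 0.17 (adjusted p = 0.00659). The increase of Kat8 was not kept: it had -0.060 with offsets (adjusted p = 0.282), 0.026 with slopes (adjusted p = 0.768) and 0.17 over the summed counts (adjusted p = 0.0633).

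In a list of subunits of acetyltransferase complexes, 6 of 26 genes rose and 6 fell, with a median of -0.003. The list also holds Ing1 and Ing2, which are known as reader subunits of the SIN3 deacetylase complex. Ing2 (-0.48 ± 0.095, adjusted p = 0.000142) and the SAGA subunit Supt20 (-0.44 ± 0.084, adjusted p = 9.49e-05) fell, both also with offsets and slopes. Of 19 histone-modifying enzymes named outside the families above, 5 rose and 5 fell. Hat1, which acetylates new H4 before its deposition behind the replication fork, was at 29.3 to 39.4 CPM (median 36.3) against 12.3 to 28.6 CPM (median 23.7), all below the lowest control (-0.71 ± 0.13, adjusted p = 4.51e-05), with -0.52 with offsets and -0.33 with slopes. Smyd5, a SET and MYND domain protein, was at 1.5 to 2.70 CPM (median 2.07) against 2.08 to 5.53 CPM (median 3.5) and rose (0.70 ± 0.15, adjusted p = 0.000473). The call was kept by offsets (0.56) and lost with slopes (0.38, adjusted p = 0.121) and with the 3 libraries inside the control range of the GC trend (0.45, adjusted p = 0.0658).

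Among the 10 acetyl-lysine readers, 4 fell and 0 rose (0 also by DESeq2 and at an unadjusted p under 0.05). Atad2, a bromodomain ATPase of replicating chromatin, was at 95.1 to 114 CPM (median 102) against 9.85 to 75.7 CPM (median 26.3), without overlap (-1.48 ± 0.26, adjusted p = 4.67e-05). With slopes it was -0.54 (adjusted p = 4.38e-08). Its paralog Atad2b had -1.15 ± 0.26 (adjusted p = 0.000643) and -0.11 with slopes (adjusted p = 0.356).

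The class I histone deacetylases split. Hdac3, the catalytic subunit of the NCOR and SMRT corepressor complexes, was at 139 to 155 CPM (median 148) in control cells and at 167 to 232 CPM (median 203) after verapamil, all 12 libraries above the highest control. Its log2 fold change was 0.43 ± 0.053 (adjusted p = 3.96e-07), between 0.30 and 0.56 in the sets, 0.59 with offsets and 0.22 with slopes. Hdac1, shared by the SIN3, NuRD and CoREST complexes, was at 86.9 to 153 CPM (median 96.5) against 67.5 to 120.4 CPM (median 84.1). Both groups spread widely, the controls of columns C5, C8 and C11 lying at 153, 138 and 149 CPM and the other 9 at or below 109. The decrease (-0.30 ± 0.11, adjusted p = 0.02) was -0.44 with offsets (adjusted p = 0.00215) and did not pass with slopes (-0.22, adjusted p = 0.251). Hdac2, its paralog in those complexes, fell in the first comparison (-0.22 ± 0.086, adjusted p = 0.0266) and was higher with offsets (0.22, adjusted p = 0.000104). Hdac8 had 0.10 ± 0.058 (adjusted p = 0.123).

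Of the subunits of the deacetylase complexes, 6 of 20 rose and 7 fell, with a median of -0.05, shares near those of all genes (31.2% and 31.6%). Ncor1, the corepressor that activates Hdac3, was at 334 to 373 CPM (median 353) against 128 to 372 CPM (median 231) (-0.50 ± 0.15, adjusted p = 0.006), missed the threshold over the summed counts (adjusted p = 0.0556) and was higher with slopes (0.15, adjusted p = 0.000549). Rcor1 (CoREST), the scaffold of Kdm1a with Hdac1 and Hdac2, had -0.37 ± 0.11 (adjusted p = 0.0073) and missed the threshold with offsets (-0.16, adjusted p = 0.0556).

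The largest decrease of any member belonged to Hdac9, a class IIa deacetylase that binds MEF2 factors. It was at 2.89 to 5.19 CPM (median 3.85) in control cells and at 0.810 to 2.89 CPM (median 1.47) after verapamil, counted at 36 to 141 reads per control library and 18 to 108 reads per verapamil library. Each verapamil library lay below the lowest control, and the log2 fold change was -1.28 ± 0.16 (adjusted p = 6.8e-07). By set it was -0.67, -1.59, -1.71 and -1.39, and it stayed past the threshold with offsets (-0.78, adjusted p = 4.13e-07) and slopes (-0.66, adjusted p = 0.000722). The abundant Hdac5 fell by little (-0.13 ± 0.05, adjusted p = 0.0221), and Hdac4 (-0.23, adjusted p = 0.0774) and Hdac7 (-0.016, adjusted p = 0.808) did not pass. With slopes Hdac5, Hdac7 and Hdac9 all passed as lower.

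Hdac9 lies on the minus strand at chr12:34047580-34917095. The 250 bases before its RefSeq start are shown because the start used has no CpG and none of the motifs searched, whereas the median promoter of the members that fell has 22 CpG in 300 bases and that of all tested genes 23. This is not particular to Hdac9: of the other members that fell, Kdm4c also had no CpG and no motif, and Setd5 had 1 CpG and no motif.
Hdac9 (chr12:34917096-34917345, minus strand): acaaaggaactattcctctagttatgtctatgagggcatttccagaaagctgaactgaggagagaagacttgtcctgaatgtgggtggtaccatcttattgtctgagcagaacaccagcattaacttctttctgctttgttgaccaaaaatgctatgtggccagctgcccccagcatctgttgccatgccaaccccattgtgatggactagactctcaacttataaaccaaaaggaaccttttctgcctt

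Of the other zinc-dependent deacetylases, Hdac11 rose. This class IV enzyme, which removes fatty acyl groups more readily than acetyl groups, was at 68.5 to 80.0 CPM (median 71.6) against 76.3 to 112 CPM (median 95.8), with 10 libraries above every control (0.39 ± 0.06, adjusted p = 9.41e-06). The value was 0.15 with offsets (adjusted p = 0.000897) and 0.15 with slopes (adjusted p = 0.00734). Gm44002 on the opposite strand covers 15.4% of its exonic bases. Hdac6, the tubulin deacetylase, had -0.12 ± 0.051 (adjusted p = 0.0385), and Hdac10, a polyamine deacetylase, -0.13 ± 0.11 (adjusted p = 0.292).

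Of the 7 sirtuins, Sirt2 rose, Sirt1 and Sirt4 fell, and 4 did not pass. Sirt2, a mainly cytoplasmic enzyme that deacetylates tubulin and H4K16, was at 52.4 to 87.5 CPM (median 78.4) in control cells and at 99.7 to 150.5 CPM (median 117) after verapamil, without overlap. The increase (0.68 ± 0.082, adjusted p = 3.01e-07, 1.6-fold) lay between 0.54 and 0.76 in the 4 sets and was 0.43 with offsets and 0.41 with slopes. Sirt1, the nuclear sirtuin known for enhancing insulin secretion in mouse β-cells, was at 29.8 to 38.8 CPM (median 33.8) against 6.51 to 32.9 CPM (median 15.3), with 10 libraries below every control. The fitted change of Sirt1 was -0.90 ± 0.22 on the log2 scale (adjusted p = 0.00139), with -1.87 and -1.71 in sets 2 and 3 against -0.28 and -0.49 in sets 1 and 4. The decrease passed with offsets (-0.57, adjusted p = 0.000913), and it missed the threshold with slopes (-0.093, adjusted p = 0.299) and over the summed counts (-0.88, adjusted p = 0.0713).

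Sirt4, a mitochondrial sirtuin known in mouse islets for restraining insulin secretion, was low in both groups, at 1.49 to 3.18 CPM (median 2.45) against 1.06 to 2.19 CPM (median 1.71), and counted at 23 to 99 reads per verapamil library. It fell (-0.51 ± 0.13, adjusted p = 0.00165), with 2 verapamil libraries below every control, and also with offsets (-0.74, adjusted p = 2.51e-05) and slopes (-0.60, adjusted p = 0.0121). Sirt3 and Sirt5 of the mitochondria and Sirt6 and Sirt7 of the nucleus had positive log2 fold changes between 0.23 and 0.42 at mean control levels of 2.08 to 6.09 CPM, and none passed in the first comparison.

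Sirt2 lies on the plus strand at chr7:28766735-28788661 and Sirt1 on the minus strand at chr10:63319005-63381704, where the RefSeq start used here lies 42.7 kb inside the GENCODE gene. Their promoters are shown with the same motifs in capitals because this pair had the largest change in each direction among the sirtuins.
Sirt2 (chr7:28766502-28766751, plus strand): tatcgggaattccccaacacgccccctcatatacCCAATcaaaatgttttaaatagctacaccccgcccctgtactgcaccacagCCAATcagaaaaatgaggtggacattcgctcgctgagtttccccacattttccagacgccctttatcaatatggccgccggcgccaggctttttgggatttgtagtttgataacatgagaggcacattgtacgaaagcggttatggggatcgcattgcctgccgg
Sirt1 (chr10:63339036-63339285, minus strand): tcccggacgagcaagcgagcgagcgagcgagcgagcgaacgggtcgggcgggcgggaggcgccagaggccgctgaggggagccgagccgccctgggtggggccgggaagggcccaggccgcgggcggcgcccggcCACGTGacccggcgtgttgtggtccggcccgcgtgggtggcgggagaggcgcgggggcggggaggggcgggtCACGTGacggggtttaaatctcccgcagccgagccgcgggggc
Sirt1 held 2 E-boxes and Sirt2 held 2 CCAAT boxes. In the windows of 300 bases, CACGTG occurred in 10.3% of the members that fell, in 22.2% of those that rose and in 10.5% of all tested genes.

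Of 10 genes of acetyl-CoA, S-adenosylmethionine and NAD metabolism, 6 rose and 1 fell, with a median of 0.24 (31.2% and 31.6% of all genes rose and fell). The 6 are not all supply genes: Nnmt uses S-adenosylmethionine and Ahcy (0.28) clears the product of methylation. The isocitrate dehydrogenase genes Idh1 and Idh2 (0.27 and 0.16) are also among them. Acly, Acss2, Idh1 and Nnmt stayed higher with offsets and with slopes. Idh1 did not pass over the summed counts (0.28, adjusted p = 0.1). Its values in sets 1 to 4 were 0.56, -0.082, -0.014 and 0.52 (interaction test, adjusted p = 0.0163). Ahcy passed with neither offsets (0.091, adjusted p = 0.176) nor slopes (0.013, adjusted p = 0.913), and Idh2 turned to -0.11 with offsets (adjusted p = 0.00214). The gene that fell in the first comparison was Mat2a, the S-adenosylmethionine synthetase (-0.20, adjusted p = 0.000177), which was higher with offsets (0.23, adjusted p = 0.00938). Acss2, which makes acetyl-CoA from acetate in the cytosol and nucleus and is also a known sterol-responsive gene, was at 47.2 to 57.0 CPM (median 53.4) in control cells and at 127 to 163 CPM (median 146) after verapamil. All 12 verapamil libraries lay above the highest control, at 2.75-fold (1.46 ± 0.049, adjusted p = 9.79e-18), with 1.57 with offsets and 1.34 with slopes. Nnmt, which consumes S-adenosylmethionine to methylate nicotinamide, was at 2.49 to 3.83 CPM (median 3.02) against 2.54 to 7.53 CPM (median 5.57), above every control in 11 libraries (0.82 ± 0.13, adjusted p = 8.02e-06). With the 3 libraries inside the control range of the GC trend it had 0.27 (adjusted p = 0.211).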

How the data were processed

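Whole transcriptomes of 24 MIN6 libraries, 12 control and 12 verapamil, were analysed from raw read counts. The authors deposited these counts per gene and library, naming in the study's methods and the submitters' processing notes HTSeq 0.9.1 for counting, HISAT2 2.1.0 for alignment to GRCm38 (mm10), Trimmomatic 0.39 for trimming and bcl2fastq 2.20. Whether HTSeq used strand, and which annotation release, is not stated, and the kit and RNA input differ between the paper (a stranded mRNA kit) and the sample labels (a SMARTER kit). The table also holds the authors' own edgeR comparison (a mean log2 CPM, fold changes and p-values), which was not used. Groups came from the sample labels. The leading digit of the description label was taken as the experiment set, which no source spells out. For 4 columns (C11, C12, V11 and V12) the name matches the title of a sample and the description of another, so they were assigned a group but no replicate number, and by elimination set 4.

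The main test was edgeR 4.0.16 in R 4.3.3 (filterByExpr with a minimum count of 10 and a minimum total of 15, TMM, glmQLFit and glmQLFTest without covariates on all 24 libraries), with Benjamini-Hochberg adjustment over 12306 genes and a threshold of 0.05. The standard error of a log2 value was its absolute value over the root of F. The difference between sets was tested by the interaction terms in edgeR, adjusted the same way. Alternatives were DESeq2 1.42.0, its size factors, no filter, blocks, sums per set, each set alone or left out, each library left out, and corrections for GC content and length (splines with 4 degrees of freedom, or slopes as covariates). Lengths and GC contents are those of the longest transcript in GENCODE M21, which matched all 12310 gene IDs (12308 had a length and GC content). Promoters came from RefSeq on GRCm38.p6. The main fit was tested on simulated data. The simulated libraries were independent and had no experiment sets and no GC or length trend, so that test does not cover these features. No 2 libraries of a group were alike within counting noise (lowest chi-square over degrees of freedom 5.72). Levels rest on 5 or more reads per library for every member.

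The members, role groups and partner lists were chosen with earlier results of these data known. Named with values were the 8 largest increases and the 8 largest decreases past the threshold at a mean of at least 1 CPM, the member with the lowest adjusted p of each role group, 7 well-known enzymes (Ezh2, Ep300, Kdm1a, Hdac1, Hdac3, Sirt1 and Kmt2a, the last not analysed here), and up to 2 genes of each partner list. Further members given with values, and the comparison of 3 verapamil libraries, were chosen after their values were seen. Figures were drawn with matplotlib 3.10.9.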

Additional observations from a re-analysis of the deposited data

Results flagged for a closer look

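For 7 of the 26 named members and 6 of the named partner genes, the effect of verapamil differed between the 4 experiment sets by edgeR's interaction test, adjusted over all genes. Adjusted p was 0.00548 for Sirt1, 0.0094 for Suz12, 0.0102 for Ezh2, 0.0132 for Kdm4c, 0.0146 for Setd2, 0.0172 for Kdm7a and 0.0391 for Kmt5b. Each of these 7 had its 2 largest decreases in sets 2 and 3. Ezh2 had log2 fold changes of -0.51, -1.31, -1.21 and -0.32 in sets 1 to 4, and all 12 verapamil libraries lay below every control.

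Among the partner genes, adjusted p was 0.0034 for the PRC2 subunit Mtf2, 0.00424 for the acetyltransferase Hat1, 0.00905 for Psip1, 0.0139 for Men1, 0.0149 for Atad2 and 0.033 for Supt20. Men1 was the only increase of these, with 0.34, 0.59, 0.63 and 0.21 in sets 1 to 4. The verapamil libraries of sets 2 and 3 had correlations with GC content of 0.49 to 0.64, those of sets 1 and 4 of 0.034 to 0.37, and the part of this trend in the differences between sets was not tested.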

How the results depend on the processing

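In the first comparison 10 members rose and 38 fell. The counts of increases were 23 with GC and length offsets, 23 with offsets and a replicate block by set, 19 with slopes and 0 within set 4. The counts of decreases were 24 with offsets, 9 with slopes, 15 over counts summed per set, 12 within set 1, 0 within set 4, 21 without set 2, 22 without set 3, and 13 with the 3 verapamil libraries inside the control range of the GC trend. Over all genes, increases numbered 1680, 2445 and 39 within sets 1, 3 and 4 and 1827 with the 3 libraries, and decreases numbered 2124 over the sums, 1721 and 11 within sets 1 and 4, 2518 without set 2, 1755 with slopes and 1825 with the 3 libraries. Leaving out each library in turn gave 10 to 11 increases and 35 to 39 decreases (3630 to 3942 and 3707 to 4023 over all genes), and no named gene lost its call. DESeq2 gave 11 and 38, its size factors in edgeR 10 and 37, and no filter on low counts 10 and 38.

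Signs turned for Kdm7a (0.17 with slopes, 0.12 with the 3 libraries), Kdm5a (0.19 with slopes), Kdm4c (0.13 and 0.058), Ncor1 (0.15 and 0.039), Prdm10 (0.0037), Kdm6a (0.028) and Rcor1 (0.033 with slopes). With offsets, with offsets and the block, and with slopes, Kdm2a had 0.077, 0.077 and 0.027 and Aebp2 had 0.23, 0.23 and 0.011. Kat8 had -0.060 with offsets. Within single sets, Kdm4a had -0.053 in set 4 and Setd3 -0.021 in set 3. The cause was not tested. The blocks were read only here. Deviations of same-numbered libraries correlated between -0.051 and 0.11, and those of set means between 0.016 and 0.069. These deviations include the GC and length trend of the treated libraries, so values near 0 cannot decide whether numbers or sets were paired. With a replicate block by number (20 libraries) 12 rose and 37 fell, and with a replicate block by set 11 rose and 39 fell. Counting error weighs most on Suv39h2 and Sirt6, with as few as 5 and 9 reads in a library, and overlaps leave some genes uncertain: Setd1a shares 51.8% of its exonic bases with Gm49388 on the same strand, and Prdm8 shares 29.1% with A730035I17Rik on the opposite strand, where the unstated strand setting matters.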

Other observations

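Ratios of related enzymes within a library, per kilobase of transcript, were read after their values had been seen, and are given as a description with no test. Ezh2 over Ezh1 lay between 7.84 and 9.49 in the controls (median 8.61) and between 2.19 and 7.04 in the verapamil libraries (median 4.19), with all 12 below the lowest control. For Sirt1 over Sirt2 the range was 0.173 to 0.354 in the controls (median 0.201) and 0.0214 to 0.150 in the verapamil libraries (median 0.0568), again without overlap. In Hdac1 over Hdac3, 11 verapamil libraries lay below every control, with medians of 1.11 and 0.742. Kat2b over Kat2a had medians of 0.484 and 0.265, with 10 libraries below every control, and Kdm4c over Kdm4a 0.357 and 0.218, with 11. In each pair the first gene has the lower GC content apart from Hdac1, so the ratios carry the GC trend of the libraries, and its part in them was not tested.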
